A study of Mus musculus with 9 samples.

Results

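Hepatokines are proteins that the liver releases into blood and that act on other organs or back on the liver, and 9 genes for such hepatokines and secreted metabolic regulators were followed here among the 16755 genes of the deposited table. They are Fgf21, Gdf15, Enho, Angptl4, Angptl6, Lect2, Rbp4, Ahsg and Fetub, and all 9 were found by symbol. The genes had been chosen with their measured group means in view, so that the differences between groups given for them are descriptions, and no test was made of them.

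Liver RNA was sequenced from 3 groups of 3 male mice of the C57BL/6 strain, named C57BL/6J in the methods. In all 9 mice both copies of Scd2, the stearoyl-CoA desaturase isoform of hepatic stellate cells (HSC), carried a floxed exon (Scd2f/f). The 1st group was Scd2f/f and untreated. The 2nd group was Scd2f/f and was given the carcinogen diethylnitrosamine (DEN), 10 mg/kg, when 2 weeks old, followed by 4 months of a Western alcohol diet (WAD), which holds cholesterol, lard and ethanol, starting when 6 weeks old. The 3rd group, Scd2f/f;Col1a1-Cre (Scd2f/f;CC), had the same regimen and in addition expressed Cre from the Col1a1 promoter, which is active in HSC and portal fibroblasts, so that hepatocytes, the main source of most hepatokines, were not the targeted cells. The length of the diet is that of the labels, and the study's methods give a longer one. The labels of the untreated mice name them untreated, but their protocol field repeats the text on DEN and WAD. The name of the group was followed, and every ratio to untreated liver rests on it. The study describes the DEN+WAD tissue as tumor-adjacent liver (TAL), while the labels call it liver. The groups are named untreated liver, control TAL (Scd2f/f with the regimen) and Scd2f/f;CC TAL below. The age of the untreated mice was given only as a range over all mice of the study, and the feeding state and hour of tissue collection were not given in the sources used here. The regimen combined DEN and WAD, and their parts cannot be told apart.

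Each value below is the authors' mean of a group in upper-quartile normalized counts, given to 3 significant digits. Values of single mice were not part of the analysis. There is therefore no standard deviation, no interval and no test for any value, the depth of each library is unknown, and neither the spread between mice nor the overlap of the groups can be given. A difference was counted when 2 means differed at least 2-fold. The sums of the means over all genes were 820581 in untreated Scd2f/f liver, 658322 in control TAL and 739723 in Scd2f/f;CC TAL. The comparison of control TAL with untreated liver and that of Scd2f/f;CC TAL with control TAL share the control TAL mean, so an error in that mean would move both ratios in opposite directions.

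The targeted gene was examined first. Scd2 had means of 2.46 in untreated liver, 6.47 in control TAL and 1.87 in Scd2f/f;CC TAL. It was 2.63 times as high in control TAL as in untreated liver, and 3.46-fold lower in Scd2f/f;CC TAL than in control TAL. These are means of whole liver, and the paper also found Scd2 in endothelial cells, macrophages and dendritic cells. The part of the targeted cells in this difference was not tested. For HSC isolated from mice given DEN and WAD, the paper reported lower Scd2 expression in Scd2f/f;CC than in Scd2f/f. Defining markers of hepatocytes were present in all groups. The summed means of 11 of 12 hepatocyte markers found were 46448, 46530 and 51867 in the same order.

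The 9 proteins act by different routes. FGF21 signals through FGFR1 and its co-receptor beta-Klotho and is known to be induced in hepatocytes by PPARA in fasting and by ATF4 and related factors of the integrated stress response. GDF15, a stress cytokine of the TGF-beta superfamily, acts through GFRAL in the hindbrain and lowers food intake, and p53 and the integrated stress response are known to induce its gene. Enho encodes adropin, a short secreted peptide linked to energy and lipid metabolism, whose liver expression is known to depend on diet and on the nuclear receptors LXR and ROR. ANGPTL4 inhibits lipoprotein lipase, ANGPTL6 is an angiopoietin-like factor of energy balance, and LECT2 is a chemotactic protein made by hepatocytes. RBP4 carries retinol from hepatocytes in blood, and AHSG (fetuin-A) and FETUB (fetuin-B) are abundant plasma proteins of the cystatin family.

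Sequences are shown for the genes whose means differed most between groups and for Rbp4 as a contrast. Promoter windows of RefSeq on GRCm38.p6, from 250 bases before to 50 bases after the transcript start, were matched for 7 of the 9 genes, which leaves Enho and Angptl4. They were searched on both strands for 4 motifs, TGATGNAAT of the C/EBP-ATF response element, the E-box CACGTG, the TATA box TATAAA and the PPAR-type direct repeat, which is AGGTCA, any 1 base and AGGTCA again. The 250 bases before the start are printed below on the strand of the gene, with matches in capitals, for Fgf21 at chr7:45615491-45615740, for Gdf15 at chr8:70632457-70632706 and for Rbp4 at chr19:38125322-38125571, all on the minus strand.
Fgf21: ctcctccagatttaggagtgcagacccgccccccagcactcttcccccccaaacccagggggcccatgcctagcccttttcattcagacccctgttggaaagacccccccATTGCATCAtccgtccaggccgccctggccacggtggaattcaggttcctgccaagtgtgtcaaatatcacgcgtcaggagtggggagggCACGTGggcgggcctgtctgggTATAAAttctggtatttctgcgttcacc
Gdf15: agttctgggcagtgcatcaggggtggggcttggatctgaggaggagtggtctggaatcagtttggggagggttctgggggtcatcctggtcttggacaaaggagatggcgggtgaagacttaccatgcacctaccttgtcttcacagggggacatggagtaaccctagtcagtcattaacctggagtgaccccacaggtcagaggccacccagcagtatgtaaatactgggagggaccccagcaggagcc
Rbp4: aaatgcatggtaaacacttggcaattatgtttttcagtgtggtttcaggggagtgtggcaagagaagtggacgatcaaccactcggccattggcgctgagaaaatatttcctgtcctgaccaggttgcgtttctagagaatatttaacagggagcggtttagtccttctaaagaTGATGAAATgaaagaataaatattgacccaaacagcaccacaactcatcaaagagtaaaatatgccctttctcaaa

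The Fgf21 window held ATTGCATCA, the reverse complement of a C/EBP-ATF match, from 140 to 132 bases before the start, 1 E-box from 50 to 45 bases before it and a TATA box from 28 to 23 bases before it. Among 32851 RefSeq windows of the same length, 0.965% held the C/EBP-ATF motif, 7.15% the E-box and 13.6% the TATA box. The Rbp4 window held the C/EBP-ATF letters TGATGAAAT from 76 to 68 bases before the start. The Gdf15 window printed above held no match, and a further Gdf15 window starting at position 70632046 held 1 E-box from 83 to 78 bases before its start. The TATA box was also matched in a Fetub window and in a further Rbp4 window. The PPAR-type repeat, present in 0.0396% of all windows, was in no window of the 7 genes searched. A match describes letters only.

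Adropin is encoded within 1 exon, and its short open reading frame is shown because Enho was the member whose mean was lowest in control TAL relative to untreated liver. It lies at chr4:41638612-41638842 on the minus strand of GRCm38, in the GENCODE M21 transcript of the gene, and has 76 codons before the stop. The start and stop codons are in capitals.
Enho: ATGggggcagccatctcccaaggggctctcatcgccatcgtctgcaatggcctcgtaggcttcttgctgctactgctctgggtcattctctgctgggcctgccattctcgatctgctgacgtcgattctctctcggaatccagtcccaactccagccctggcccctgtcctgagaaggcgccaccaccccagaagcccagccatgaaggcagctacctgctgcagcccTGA

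The means of the 9 genes showed 2 kinds of behaviour. Fgf21, Gdf15 and Enho differed at least 2-fold between control TAL and untreated liver, whereas the ratios of the other 6 genes ran from 0.808 to 1.25 over the 3 pairs of groups. Fgf21 and Gdf15 were higher in control TAL and Enho was lower. In Scd2f/f;CC TAL, all 3 lay between the other 2 groups.

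Set against all genes, the counts of members stand as follows, and nothing is read from them since the members were chosen from these means. Between control TAL and untreated liver, 2 of 9 members were at least 2-fold higher, beside 9.37% of all genes, and 1 was at least 2-fold lower, beside 4.69% of all genes. Between Scd2f/f;CC TAL and control TAL, 1 member was higher, beside 1.82%, and 1 was lower, beside 4.07%. Between Scd2f/f;CC TAL and untreated liver, 2 members were higher, beside 6.41%, and 0 were lower, beside 4.64% of all genes. The median log2 ratio of the members was 0.01, 0.21 and 0.23 in these 3 comparisons, and that of all genes was 0.04, 0.00 and 0.05.

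**Figure D1:**
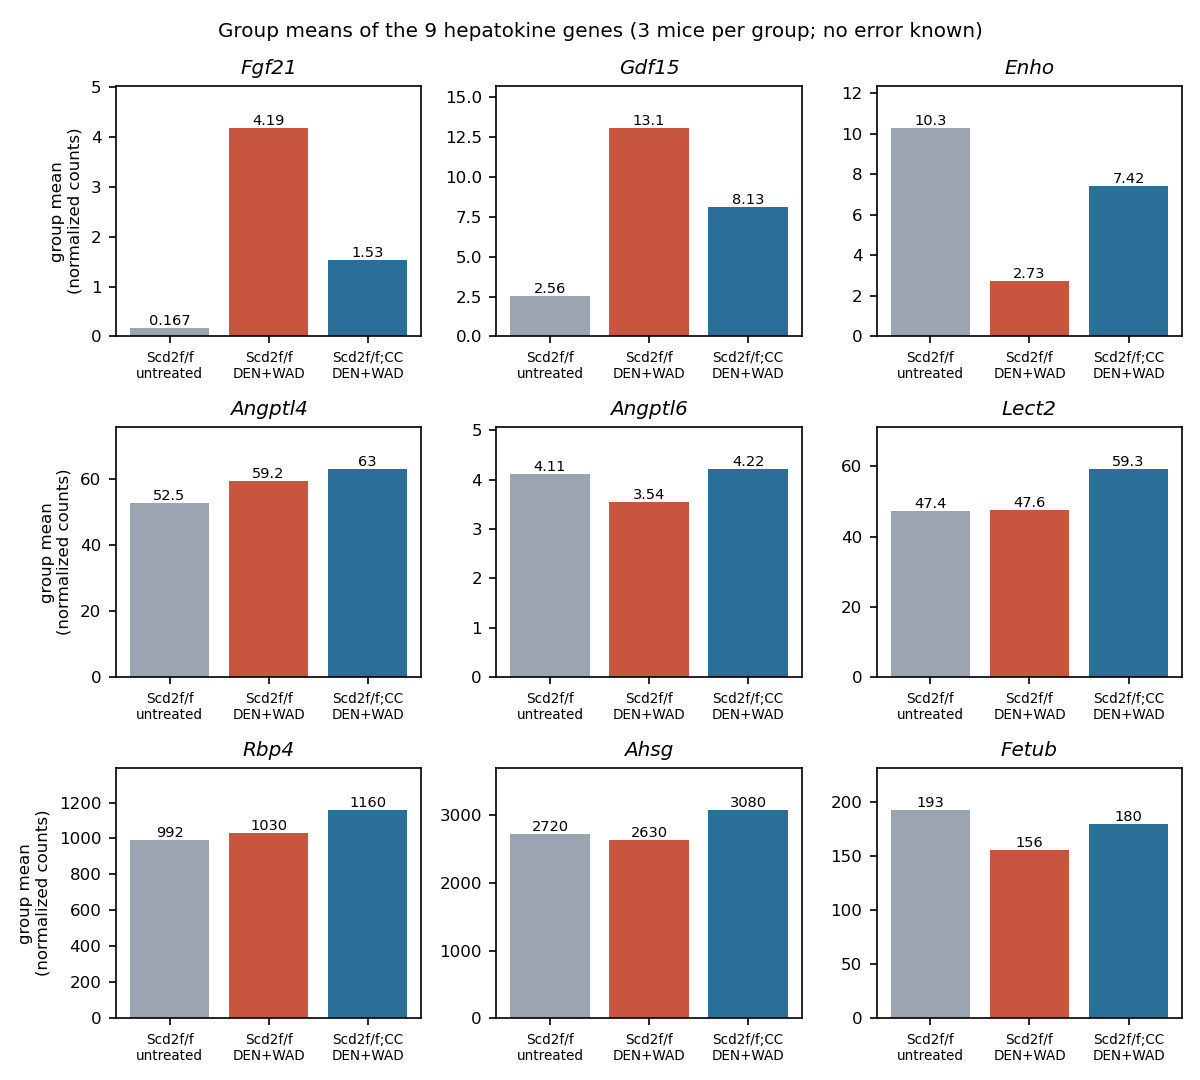
Bars give the mean of each hepatokine gene in upper-quartile normalized counts (linear axes from 0, a separate scale for each gene) in untreated Scd2f/f liver (grey), control TAL (Scd2f/f DEN+WAD, red) and Scd2f/f;CC TAL (blue), with no error bars since only group means were analysed. Fgf21 (0.167, 4.19 and 1.53) and Gdf15 (2.56, 13.1 and 8.13) peaked in control TAL, Enho (10.3, 2.73 and 7.42) was lowest there, and the bars of the other 6 genes are of similar height.

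Among induced factors, Fgf21 (chr7:45613886-45615490, minus strand; 3 exons) showed the widest range (positions of genes are those of GENCODE M21 on GRCm38). Its mean was 0.167 in untreated liver, 4.19 in control TAL and 1.53 in Scd2f/f;CC TAL. Among means not divided by length, 6.61% of genes had a lower one in untreated liver, whereas 49.9% of genes had a lower mean in control TAL and 35.2% in Scd2f/f;CC TAL. The mean in control TAL was thus 25.1 times that in untreated liver, a log2 ratio of 4.65, which was the 7th highest of all 16755 genes. In Scd2f/f;CC TAL it was 2.74-fold lower than in control TAL (log2 ratio -1.45, 285th from the lowest) and 9.16 times as high as in untreated liver. Because the untreated mean was so small, these ratios depend on how low values are treated, and with 1 added to both means the log2 ratios were 2.15 and -1.04.

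Gdf15 (chr8:70629393-70632456, minus strand; 2 exons) followed the same order at higher levels. Its mean was 2.56 in untreated liver, 13.1 in control TAL and 8.13 in Scd2f/f;CC TAL. It was 5.12 times as high in control TAL as in untreated liver (log2 ratio 2.36, the 187th highest of all genes). In Scd2f/f;CC TAL it was 1.61-fold lower than in control TAL (log2 ratio -0.69), which is within 2-fold, and 3.18 times as high as in untreated liver.

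Enho (chr4:41638144-41640324, minus strand; 2 exons) showed the opposite order. Its mean was 10.3 in untreated liver, 2.73 in control TAL and 7.42 in Scd2f/f;CC TAL. It was 3.77-fold lower in control TAL than in untreated liver (log2 ratio -1.92, the 231st lowest). It was 2.72 times as high in Scd2f/f;CC TAL as in control TAL (log2 ratio 1.44, the 103rd highest), and its mean there was 0.720 of that in untreated liver. Enho was the only member whose mean was at least 2-fold higher in Scd2f/f;CC TAL than in control TAL. In the annotation, Enho shares 948 bp with an antisense gene, Gm12406, which was not analysed here, and 15 bp with Dnaic1, whose means were 0.212, 0.0968 and 0.374 in the same order. The library kit does not mark strand, so reads of Enho and of an overlapping antisense RNA cannot be told apart.

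The 3 carriers and plasma proteins had high means and differed little. Ahsg (chr16:22891277-22899449, plus strand) had means of 2720 in untreated liver, 2630 in control TAL and 3080 in Scd2f/f;CC TAL. Rbp4 (chr19:38116629-38125281, minus strand) had means of 992, 1030 and 1160, and Fetub (chr16:22918334-22939778, plus strand), which lies 18.9 kb from Ahsg, had means of 193, 156 and 180. The ratio of control TAL to untreated liver was 0.967 for Ahsg, 1.04 for Rbp4 and 0.808 for Fetub, and that of Scd2f/f;CC TAL to control TAL was 1.17, 1.13 and 1.15. Ahsg shares 2345 bp with an antisense gene, Gm30505, which was not analysed here.

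The angiopoietin-like genes and Lect2 also differed little. Angptl4 (chr17:33773750-33781830, minus strand), a known PPARA target, had means of 52.5 in untreated liver, 59.2 in control TAL and 63.0 in Scd2f/f;CC TAL, with ratios of 1.13 and 1.06. Angptl6 (chr9:20873808-20879727, minus strand) had means of 4.11, 3.54 and 4.22, with ratios of 0.861 and 1.19. It shares 500 bp with A230050P20Rik on the other strand, whose means were 7.0, 10.8 and 10.3, so that its value may hold reads of that gene. Lect2 (chr13:56542464-56548502, minus strand) had means of 47.4, 47.6 and 59.3, with ratios of 1.0 and 1.25.

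Levels of different genes can be compared only per length of transcript. Per kb of the GENCODE M21 transcript, the means in untreated liver were 1833 for Ahsg, 854 for Rbp4, 121 for Fetub, 56.6 for Lect2, 15.9 for Angptl4, 8.12 for Enho, 2.6 for Angptl6, 1.66 for Gdf15 and 0.176 for Fgf21. In control TAL the upper 5 kept this order, while Gdf15 (8.48) and Fgf21 (4.41) stood above Angptl6 (2.24) and Enho (2.15). In Scd2f/f;CC TAL, Enho (5.85) and Gdf15 (5.26) were near each other, above Angptl6 (2.67) and Fgf21 (1.61). With no spread, it cannot be said which neighbours in these orders differ.

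**Figure D2:**
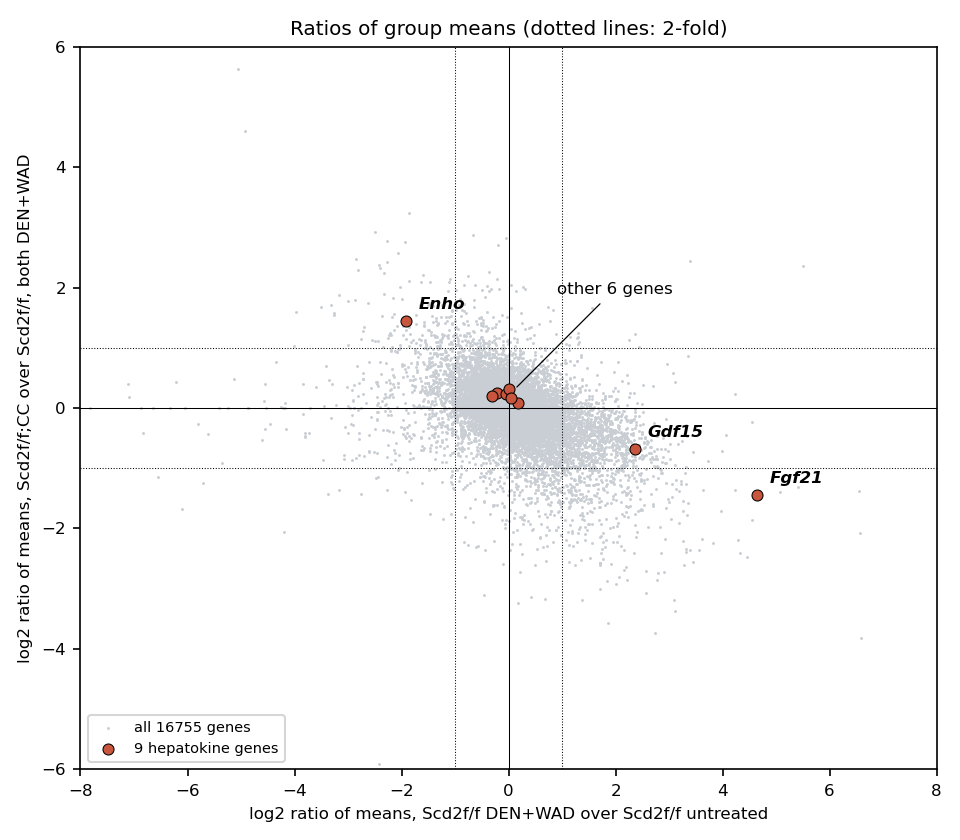
Each point is a gene, with the log2 ratio of control TAL (Scd2f/f DEN+WAD) to untreated liver on the horizontal axis and that of Scd2f/f;CC TAL to control TAL on the vertical axis. The 9 hepatokine genes are red and the dotted lines mark 2-fold. Fgf21 (4.65, -1.45) and Gdf15 (2.36, -0.69) lie to the lower right, Enho (-1.92, 1.44) lies to the upper left and the other 6 lie near the centre; both axes share the control TAL mean, and 3 genes lie outside the axes.

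The ratios of the 6 other members were small enough to depend on the scaling. All 6 were above 1 for Scd2f/f;CC TAL over control TAL, from 1.06 to 1.25, as deposited, but 5 of 6 when each group was scaled to the same total, which moved every log2 ratio of this comparison by -0.17. For control TAL over untreated liver, 3 of 6 were above 1 as deposited and 6 of 6 at equal totals, which moved every log2 ratio by 0.32. For control TAL over untreated liver and Scd2f/f;CC TAL over control TAL, the summed hepatocyte markers had ratios of 1.0 and 1.11. The 6 members ranged from 0.808 to 1.13 and from 1.06 to 1.25. The sums rest on the most abundant markers, Alb above all, and the median log2 ratios of the 11 markers were -0.15 and 0.14. Of the 11, 8 were below 0 in the first of these comparisons and 10 above 0 in the second. In whole liver, fewer cells of a type and less RNA per cell cannot be told apart.

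The genes next to the members were examined too. The 2 nearest genes on each side with a mean of at least 1 in a group gave 36 neighbour positions in all, of which 2 were at least 2-fold higher and 1 lower in control TAL than in untreated liver, and 0 in either direction in Scd2f/f;CC TAL relative to control TAL. Ahsg and Fetub stand beside each other among these positions, and Hrg and Dnajb11 were counted beside both. Of all genes with a mean of at least 1 in either of the 2 groups compared, 7.49% were higher and 3.44% lower in the first comparison. In the second comparison these shares were 0.774% and 2.10%. The 2 neighbours that were higher were Myof beside Rbp4 (3.08 and 9.69) and Lrrc25 beside Gdf15 (0.464 and 1.78). The one that was lower was Cyp26a1 (5.93 and 2.14), 415 kb from Rbp4. Beside Fgf21, the circadian transcription factor gene Dbp had means of 46.5, 28.7 and 26.7, and Bcat2, for a branched-chain amino acid transaminase, had 5.28, 3.78 and 4.41. On chromosome 4, Enho had a higher log2 ratio of Scd2f/f;CC TAL to control TAL than the 23 other genes within 1 Mb on either side with a mean of at least 1 in a group, whose ratios on this scale ran from -1.51 to 0.28 with a median of -0.06. Of 10 further genes in this stretch with lower means, Dnaic1, which overlaps Enho, had a higher log2 ratio (1.95) than Enho. The gene nearest to Enho on one side, Il11ra1, an interleukin-11 receptor subunit, had means of 11.9, 6.84 and 7.71.

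**Figure D3:**
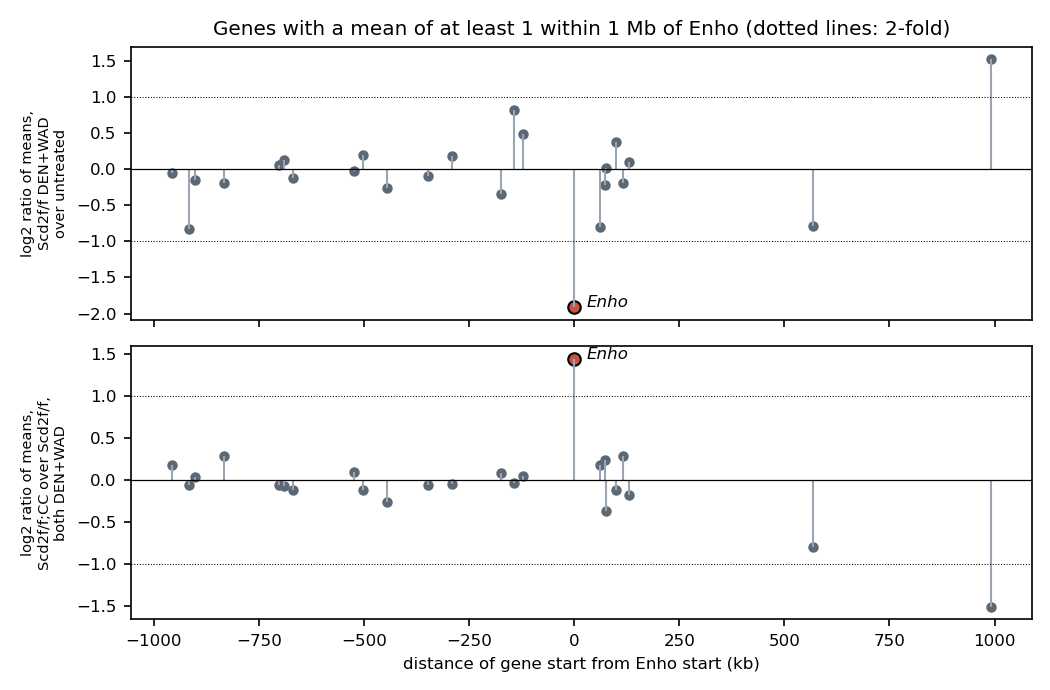
Genes with a mean of at least 1 within 1 Mb of Enho are placed by the distance of their start from that of Enho in kb, with the log2 ratio of control TAL to untreated liver above and of Scd2f/f;CC TAL to control TAL below. Enho (red) has the lowest value above (-1.92) and the highest below (1.44), while the other 23 genes range from -0.83 to 1.52 above and from -1.51 to 0.28 below.

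The receptors and partners of these proteins mostly differed less than 2-fold. The counts of this and the following lists stand beside 9.37% of all genes higher and 4.69% lower for control TAL over untreated liver, and 1.82% higher and 4.07% lower for Scd2f/f;CC TAL over control TAL, with medians of 0.04 and 0.00 over all genes. Of 34 listed, 28 were found, and 1 was at least 2-fold higher in control TAL than in untreated liver, with none past 2-fold between the 2 TAL groups. The median log2 ratio of the list was 0.23 in the first comparison and 0.06 in the second. The gene past 2-fold was Lpl, for lipoprotein lipase, which ANGPTL4 inhibits, with means of 16.3, 83.6 and 66.2, beside the near-level means of Angptl4. Gpihbp1, which anchors the lipase on capillaries, had 4.99, 6.47 and 6.00. For FGF21, the receptor gene Fgfr1 had 7.77, 4.25 and 3.98 and its co-receptor gene Klb had 15.4, 18.2 and 24.9, so that Fgfr1 was 1.83-fold lower in control TAL than in untreated liver and Klb was 1.37 times as high in Scd2f/f;CC TAL as in control TAL.

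The other partner genes named were within 2-fold. Insr, the insulin receptor that AHSG is known to inhibit, had means of 98.0, 107 and 125, and Irs2, an insulin receptor substrate, had 13.5, 14.0 and 20.5. Tie1, a receptor reported for LECT2 on endothelial cells, had 5.42, 5.45 and 5.6. Ttr, for transthyretin, which holds RBP4 in blood, had 1500, 1520 and 1730, and Stra6l, for the liver receptor of RBP4, had 41.1, 49.6 and 67.1. Gfral, the receptor of GDF15 in the hindbrain, was not analysed here. Of the other genes nearest to 2-fold, Lrp1 had 568, 896 and 989, Lipg, for endothelial lipase, had 11.1, 7.45 and 6.86, and Lrp2, an endocytic receptor, had 2.44, 2.54 and 1.63.

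Genes of retinoid storage and handling were read beside Rbp4. Of 28 found of 33 listed, 0 were at least 2-fold higher and 2 lower in control TAL than in untreated liver. These were Rdh11, for a retinol dehydrogenase (34.9, 7.58 and 6.99), and Cyp26a1, for the enzyme that clears retinoic acid (5.93, 2.14 and 2.67). The next were Retsat, for a retinol saturase (87.3, 150 and 168), and Rdh16, for another retinol dehydrogenase (33.6, 54.2 and 52.6). Between the TAL groups, 1 was at least 2-fold higher in Scd2f/f;CC TAL, Crabp2, at means below 1 (0.0483 and 0.194). The median log2 ratio of the list was 0.10 in the first comparison and 0.10 in the second. Ces1d, for a carboxylesterase, had 177, 142 and 185, and Adh7, for an alcohol dehydrogenase, had 10.1, 7.2 and 9.27.

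The transcription factors that are known to act on these genes mostly had level mRNA means. Of 39 regulators, 4 were at least 2-fold higher in control TAL than in untreated liver and 0 lower, and between the TAL groups 0 were higher and 1 was lower in Scd2f/f;CC TAL. The median log2 ratio of the list was 0.02 in the first comparison and 0.01 in the second. The stress factor genes Atf3 and Atf5 were among the 4. Atf3 had means of 0.404, 3.69 and 0.982, the order of Fgf21, and was the one that was lower in Scd2f/f;CC TAL, 3.76-fold. Atf5 had 43.2, 107 and 97.8. Pparg, a fat cell nuclear receptor, had 4.01, 9.28 and 7.17, and the circadian repressor gene Nr1d1 had 18.9, 43.1 and 43.9. By contrast Ppara had 79.0, 80.7 and 104, Atf4 had 43.0, 31.8 and 34.1, and Hnf4a, a main hepatocyte factor, had 271, 229 and 213. Rora had 41.6, 47.7 and 51.6, and Nr1h3, for LXR-alpha, had 33.5, 32.5 and 32.7. Srebf1, a lipogenic factor, had 60.3, 67.7 and 108, Eif2ak3, for the kinase PERK, had 12.7, 13.0 and 8.67, and Ddit3, for CHOP, had 1.26, 2.34 and 1.62.

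Many targets of PPARA had higher means in control TAL, and Fgf21 and Angptl4, both on this list, stood far apart on it. Leaving these 2 out, 12 of 28 genes were at least 2-fold higher in control TAL than in untreated liver and 0 lower, with a median log2 ratio of 0.73. Between the TAL groups 1 of 28 was higher and 2 were lower in Scd2f/f;CC TAL, with a median of 0.02. Cyp4a14, for a fatty acid hydroxylase, had means of 32.9, 158 and 137, and Plin4, for a lipid droplet protein, had 3.36, 22.6 and 13.0. Cpt1b, for a carnitine palmitoyltransferase, had 0.133, 1.66 and 0.644, an order like that of Fgf21. Cidec, for a lipid droplet protein, had 8.85, 14.3 and 5.56, and Acot3, for an acyl-CoA thioesterase, had 3.99 and 8.5 in the TAL groups.

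Targets of the integrated stress response were split. Of the 23 genes other than Fgf21 and Gdf15 found, 6 were at least 2-fold higher and 3 lower in control TAL than in untreated liver, with a median log2 ratio of 0.50. In Scd2f/f;CC TAL relative to control TAL, 0 were higher and 4 lower, with a median of -0.27. The 4 were Slc7a11, for the cystine transporter (0.0828, 1.01 and 0.224), Atf3, Chac1, for a glutathione-degrading enzyme (1.06, 4.01 and 1.34), and Slc7a1, for a cationic amino acid transporter (0.541, 1.26 and 0.549). The 3 that were lower in control TAL than in untreated liver included genes of amino acid synthesis, Asns, for asparagine synthetase (2.72 and 1.13), and Psph, for phosphoserine phosphatase (5.30 and 2.31), with Ddit4, an inhibitor of mTORC1 (3.62 and 1.69).

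Targets of p53 were read beside Gdf15. Leaving Gdf15 out, 6 of 19 were at least 2-fold higher and 0 lower in control TAL than in untreated liver, with a median log2 ratio of 0.50, and relative to control TAL 0 were higher and 3 lower in Cre mice, with a median of -0.31. Cdkn1a, for the cell cycle inhibitor p21, had means of 0.464, 4.33 and 1.80. Pmaip1, for the pro-apoptotic NOXA, had 0.340, 1.70 and 1.04, Phlda3, an inhibitor of AKT, had 0.452, 1.08 and 0.414, and Btg2, an antiproliferative factor, had 5.04, 10.4 and 5.24. Several of these means were near or below 1.

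Targets of LXR and ROR were read beside Enho. Of 20, 9 were at least 2-fold higher and 1 lower in control TAL than in untreated liver, and 2 were higher and 0 lower when Scd2f/f;CC TAL was compared with control TAL. The median log2 ratio of the list was 0.77 in the first comparison and 0.24 in the second. The one that was lower, Avpr1a, for a vasopressin receptor, had means of 14.0, 5.77 and 10.7, the order of Enho. Scd1, for the hepatocyte desaturase, had 1670, 6360 and 5310, Abcg1, for a cholesterol exporter, had 3.53, 12.7 and 10.1, and Insig2, for a brake on sterol synthesis, had 40.8, 124 and 126. G6pc, for glucose-6-phosphatase, had 71.2, 54.2 and 136, Elovl3, for a fatty acid elongase, had 13.7, 34.3 and 73.2, and the sterol transporter gene Abcg8 had 32.7, 67.6 and 114. Arntl, for the clock factor BMAL1, had 0.471, 2.17 and 3.17. Together with Nr1d1 and Dbp above, it is a clock gene, and the part of the hour of collection in these values was not tested.

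**Figure D4:**
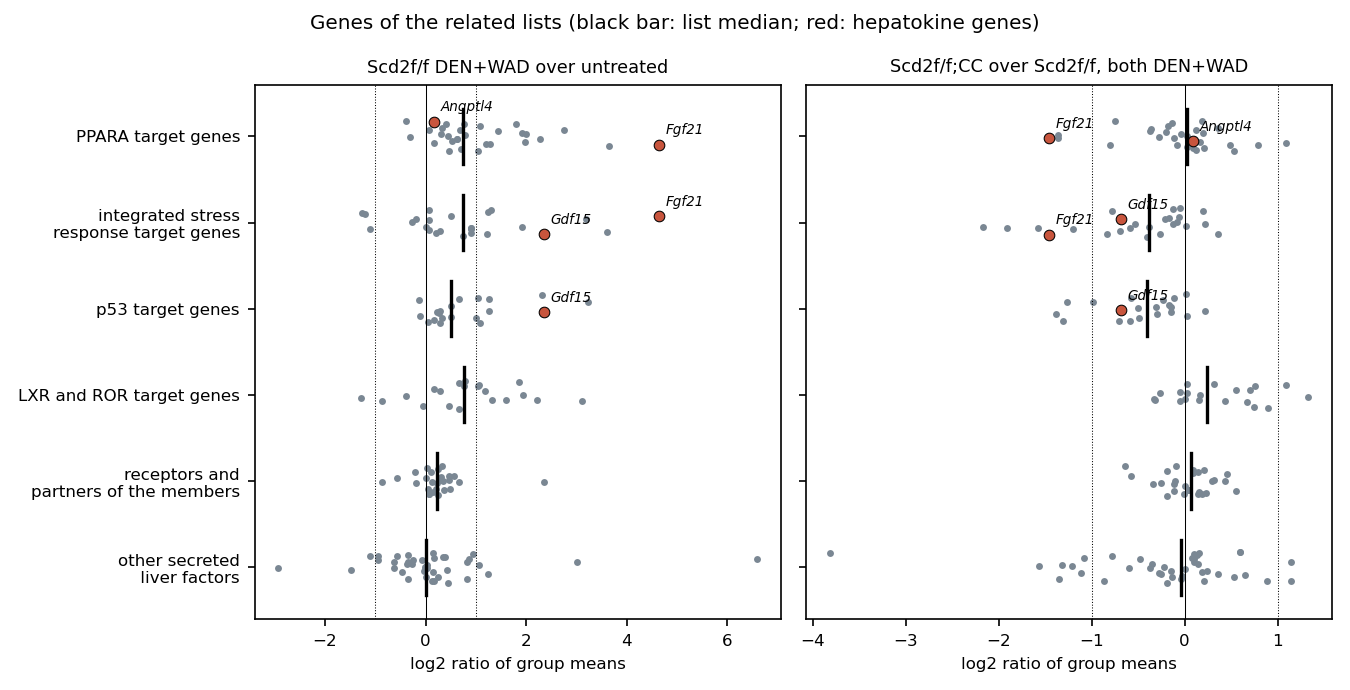
Each grey point is a gene of a related list, placed by its log2 ratio of control TAL to untreated liver (left) and of Scd2f/f;CC TAL to control TAL (right), black bars give list medians including the hepatokine genes, and red points are hepatokine genes on a list. Fgf21 lies at the far right of the PPARA and stress response lists on the left (4.65), and both it (-1.45) and Gdf15 (-0.69) lie left of the list medians on the right, while Angptl4 (0.17 and 0.09) lies near 0.

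Other factors that the liver secretes were read as a further list. Of 40, 4 were at least 2-fold higher and 3 lower in control TAL than in untreated liver, and 2 were higher and 7 lower when Scd2f/f;CC TAL was compared with control TAL. The median log2 ratio of the list was 0.01 in the first comparison and -0.04 in the second. Gpnmb, a glycoprotein also made by macrophages, had means of 0.0937, 8.98 and 0.638, and Lcn2, the acute-phase protein lipocalin-2, had 5.21, 41.8 and 14.1. Both had the order of Fgf21. Manf, a factor of the endoplasmic reticulum, had 78.0, 27.9 and 25.3. Adamtsl2 had 3.25, 5.93 and 2.38, and Nucb2, for the precursor of nesfatin-1, had 4.11, 2.64 and 1.14.

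The genes whose log2 ratios lay closest to those of the 3 members were sought among 5586 genes with a mean over the groups of at least 10, by the distance in the 2 log2 ratios. For Gdf15 they were Sirpa, a phagocyte receptor (6.09, 33.5 and 19.1), Cd36, a fatty acid and lipoprotein receptor (23.7, 138 and 88.5), and C1qb, a complement subunit of macrophages (8.14, 38.3 and 26.4), at distances of 0.16 to 0.19. For Enho they were Mup12, a major urinary protein (486, 126 and 350), at a distance of 0.04, Hsd3b5, a hydroxysteroid dehydrogenase of male mouse liver (128, 29.0 and 85.8), and Hbb-bs, a beta globin of red cells (163, 46.2 and 98.8). Mup12 has near-identical paralogs, between which counting may have split reads. For Fgf21 they were Clec7a, a phagocyte receptor (2.54, 21.9 and 11.3), Lcn2, and Cyp2a4, a cytochrome P450 (0.348, 32.6 and 12.6), at larger distances of 1.62 to 1.9. Since Fgf21 itself had a mean under 10, the search was repeated, after the data had been seen, among 11784 genes with a mean over the groups of at least 1. The nearest to Fgf21 were then Itgax, an integrin of dendritic cells and macrophages (0.235, 3.66 and 1.12), Ntrk2, a neurotrophin receptor (0.436, 18.6 and 7.47), and Marco, a macrophage scavenger receptor (0.870, 14.6 and 10.7), at distances of 0.73 to 1.16. The nearest to Gdf15 were then Pmaip1, Evl and Nckap1l, at 0.04 to 0.08, and Mup12 and Hsd3b5 stayed the nearest to Enho.

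Marker genes of other cell types differed between the groups too, and their part in the members' values was not tested. Of 12 macrophage markers, 12 were at least 2-fold higher in control TAL than in untreated liver and 3 lower in Scd2f/f;CC TAL than in control TAL, and their sum was 107, 432 and 344. The 12 markers of T, B and NK cells summed to 8.23, 34.4 and 23.9. Most of this sum was Ptprc (5.82, 27.2 and 19.0), and of the others only Cd3e and Cd8a had a mean of at least 1 in any group. Of these 12, 9 were at least 2-fold higher in control TAL than in untreated liver, and 3 were lower in Scd2f/f;CC TAL than in control TAL. The 12 of stellate cells and portal fibroblasts summed to 211, 355 and 203. Of these, 3 collagen genes, among them Col1a1 (4.69, 19.6 and 4.51), were at least 2-fold higher in control TAL than in untreated liver. The median log2 ratio of the 12 was 0.50 in this comparison, with 10 above 0 and 2 below. The 2 were Des (4.25, 3.29 and 1.98) and Acta2 (1.27, 1.2 and 0.388). In Scd2f/f;CC TAL, 6 of the 12, Col1a1 among them, were at least 2-fold lower than in control TAL. The 12 endothelial markers summed to 146, 191 and 191, and the 8 of 10 cholangiocyte markers found to 65.0, 61.0 and 26.1.

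Blood markers took the order of Enho. The 6 erythroid markers summed to 321, 126 and 223, and 4 of them were at least 2-fold lower in control TAL than in untreated liver and 2 higher in Scd2f/f;CC TAL than in control TAL. Of 6 adipocyte markers only Fabp4 (5.24, 5.49 and 3.76) and Cfd (0.688, 12.9 and 15.1) were found. Among hepatocyte markers, Tat, for tyrosine aminotransferase, was the one past 2-fold, with 499, 181 and 305, and 0 were past 2-fold between the TAL groups. No marker found had a mean of 0 in any group, but neither had any other gene. The lowest means over all genes were 0.04 in untreated liver, 0.0348 in control TAL and 0.0349 in Scd2f/f;CC TAL. The presence of a cell type therefore cannot be read from this.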

How the data were processed

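The deposited table holds 1 row per gene, and the signal used is the authors' least-squares mean of each group, in normalized counts with 3 significant digits. To make it, the authors counted reads by Partek's E/M algorithm on the Gencode M3 genes and scaled counts to the upper quartile. The submitters' processing notes name Partek 6, STAR 2.6.1 and mm10. The authors' p-values, false discovery rates, ratios and fold changes were not used. Ratios were computed from the means with no pseudocount and counted at 2-fold. With no single mice there was no test, and depth is unknown.

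Of symbols matched once to GENCODE M21 on GRCm38, 99.98% lay at an overlapping position. The members, the 8 gene lists and the marker lists were chosen with earlier results of these data known. Named genes are the members, Scd2, fixed receptors and regulators, the 2 nearest neighbours on each side, the 3 most alike genes, and in each list the 4 with the largest ratio and a mean of at least 1. Slc7a1, Asns, Psph, Ddit4, Crabp2, Col1a1, Des, Acta2, Spp1, Tat, Fabp4 and Cfd were named after their values were seen. The same holds for the genes of the repeated search for alike genes. Some genes that the rule names are not reported here. The ratio and count steps were tested on simulated means. Alternatives were pseudocounts of 0.1 and 1, median centring, equal totals, 1.5-fold, a minimum mean and protein-coding genes. Software was Python 3.11.15 with NumPy 2.4.6, pandas 2.3.3 and Matplotlib 3.10.9.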

Additional observations from a re-analysis of the deposited data

How the results depend on the processing

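The number of members past 2-fold was 3 between control TAL and untreated liver, 2 between the TAL groups and 2 between Scd2f/f;CC TAL and untreated liver, and was the same under pseudocounts of 0.1 and 1, median centring and equal totals. At 1.5-fold it was 3, 3 and 2. The counts of all genes depended on low values: from 2355, 987 and 1851 they came to 1336, 349 and 940 where either mean had to reach 1, and to 712, 125 and 479 with a pseudocount of 1. Equal totals, tried after the data had been seen, moved the share of counted genes that were higher from 66.7%, 30.9% and 58.0% to 83.3%, 16.9% and 70.0%. Among protein-coding genes alone the second share was 18.7%. With a minimum mean of 1, the retinoid list had 0 genes past 2-fold between the TAL groups, since Crabp2 was removed. No paired analysis was possible because the table gives group means and no single mice, and for the same reason no replicate could be left out. Depth is unknown, and the log2 ratio of Fgf21 between control TAL and untreated liver went from 4.65 to 4.01 and 2.15 with pseudocounts of 0.1 and 1.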

Other observations

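Genes of the sex-biased programme of mouse liver, which depends on growth hormone, were counted after Hsd3b5 had been seen beside Enho, and all mice were male. Of 17 genes that are higher in male than female mouse liver, 7 were at least 2-fold lower and 1 higher in control TAL than in untreated liver, with a median log2 ratio of -0.87, and relative to control TAL 6 were higher and 0 lower in Cre mice, with a median of 0.70. Hsd3b5, which prompted the list, is among the 17, and is counted with those lower in control TAL and higher in Cre mice. Ugt2b38, a glucuronosyltransferase gene, had means of 56.3, 6.25 and 23.0 in untreated liver, control TAL and Scd2f/f;CC TAL, Serpina1e, for a serine protease inhibitor, had 3990, 784 and 1590, and Bcl6, a repressor of female-biased genes, had 28.2, 10.9 and 24.6. Cyp4a12a, for a fatty acid hydroxylase, did not share the order of Enho, with 110, 133 and 79.1. Cyp4a12b, Elovl3, Mup20, Gstp1 and Cyp2d9 of this list did not share it either.

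Of 23 genes that are higher in female than male mouse liver, 19 were found, of which 4 were at least 2-fold higher and 3 lower in control TAL than in untreated liver, and relative to control TAL 6 were higher and 3 lower in Cre mice. These counts include Cyp2a4 and Ntrk2, which had already been seen beside Fgf21, as higher in control TAL and lower in Cre mice. The medians of this list were -0.07 and 0.46 on the log2 scale, so that both lists had a median above 0 in Cre mice relative to control TAL. Cyp2b9, a cytochrome P450 gene, had 0.135, 6.08 and 31.1, while Cyp2a4 had 0.348, 32.6 and 12.6 and Slco1a4, for an organic anion transporter, had 50.3, 7.74 and 19.7. Both lists include genes of families with near-identical copies, and since they were chosen after values had been seen, no test was made.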
